A study of Mus musculus with 6 samples.

Results

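Arg1 and Mmp12 macrophages with little C1q were studied in single-cell RNA libraries of 4T1 tumours. 4T1 is a cell line of mouse mammary carcinoma, and the hosts were Balb/c mice. Members were chosen by measured UMI counts. A barcode was a member if it held at least 2 UMIs of Arg1 and Mmp12 together and at most 1 UMI of the C1q genes C1qa, C1qb and C1qc. A UMI is a molecular tag that counts 1 captured transcript. Each member also had at least 200 detected genes, at least 1 UMI of Lyz2, Ctss or Msr1, at most 1 UMI of Krt8, Krt18 or Epcam, and 0 UMIs of the neutrophil genes Cxcr2, Hdc and Asprv1. The rule found 75 members among 6730 barcodes with at least 200 genes, and those 6730 came from 30000 listed barcodes. The levels of these genes are therefore given below as a description only.

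The study asked how magnetic hyperthermia changes the cells of a tumour, macrophages in particular. FVIO-MHT tumours received magnetic iron oxide nanorings at 0.1 mg per cm3 of tumour and then 10 min in a field alternating at 365 kHz. The FVIO-MHT group has 3 libraries, the PBS group has 3, and both groups carry 4T1 tumours of the same host strain. All 6 libraries carry 1 protocol text with a 24 h wait, and it does not state if the PBS tumours were placed in the field. Nothing in the labels ties a replicate to a mouse of its own, and the p-values then describe only how far these libraries differ, which may be technical.

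Macrophages take up debris and shape tissue repair, and in tumours they come from blood monocytes and from cells that settle in the tissue. Arg1 encodes arginase, which breaks down arginine and is a textbook marker of the repair-type state, while Mmp12 encodes a secreted protease that cuts elastin. C1q, the recognition protein of the complement cascade, is made by many mature tissue macrophages, so cells with Arg1 or Mmp12 and little C1q differ from that type in a defining product. Arg1 lies at chr10:24915221-24927484 on the minus strand and Mmp12 at chr9:7344381-7369499 on the plus strand (GRCm38, GENCODE annotation).

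Members were few in every library. FVIO-MHT replicates 1, 2 and 3 held 20, 5 and 5 members, and PBS replicates 1, 2 and 3 held 12, 22 and 11. Their median depth was 580.5, 455 and 771 UMIs in the FVIO-MHT libraries and 631.5, 639 and 818 UMIs in the PBS libraries. Summed over members, FVIO-MHT libraries held 13068, 3941 and 4203 UMIs, and PBS libraries held 8519, 16049 and 10330. Whole libraries held between 678337 and 2207534 UMIs. A pair of PBS libraries, replicates 2 and 3, shared 44 barcodes, every other pair shared at most 6, and 0 members carried a shared barcode.

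The label was checked against the macrophage markers. The summed level of 13 general macrophage genes was 5280.1, 6089.8 and 5948 CPM (UMIs of a gene per 1000000 UMIs of the class sum) in the FVIO-MHT libraries and 9978, 10655 and 9197 CPM in the PBS libraries. The groups did not overlap. The list includes the C1q genes, which the rule holds low, and Lyz2, Ctss and Msr1, of which the rule asks at least 1 UMI. Csf1r, the receptor for a macrophage growth factor, gave 2, 0 and 0 UMIs in FVIO-MHT members and 3, 3 and 1 UMIs in PBS members. Adgre1, the gene of the macrophage antigen F4/80, gave 0 UMIs in FVIO-MHT members and 1, 1 and 0 UMIs in PBS members. Cd68, a lysosomal glycoprotein of macrophages, gave 2, 1 and 0 UMIs in FVIO-MHT members and 1, 4 and 3 in PBS members. Macrophage genes were present in the sums of both groups, but in part by the rule, so the sum is not an independent check of the label. Adgre1 and Csf1r were near 0, and at these depths the counts do not show that a cell lacks them. Msr1, the scavenger receptor in the rule and the label, gave 9, 3 and 0 UMIs in FVIO-MHT members and 6, 14 and 12 UMIs in PBS members.

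Markers of other cell types were summed in the members as well. B cell and mast cell or basophil markers gave 0 UMIs in all 6 libraries, and dendritic and T or NK markers gave at most 1 UMI in a library. Monocyte markers, which the rule does not limit, had 765, 761 and 1903 CPM in FVIO-MHT members and 939, 2181 and 2323 CPM in PBS members. In the C1q macrophages defined below they had 952 and 463 CPM in FVIO-MHT replicates 2 and 3 and 276, 757 and 1795 CPM in PBS. Tumour epithelial markers, in part limited by the rule, gave 0, 0 and 3 UMIs in FVIO-MHT members and 0, 10 and 2 in PBS members. Neutrophil markers, with Cxcr2, Hdc and Asprv1 at 0 by the rule, reached 5051, 1776 and 476 CPM in FVIO-MHT members and 822, 249 and 968 CPM in PBS members. In FVIO-MHT replicate 1 only 4 of the 12 neutrophil markers were detected, and S100a9 and S100a8 supplied 30 and 21 of their 66 UMIs. Endothelial markers gave 21 UMIs in FVIO-MHT replicate 3 and at most 4 UMIs in the other libraries. All 21 came from 1 barcode of 1378 UMIs, which held both Arg1 and Mmp12. That barcode stayed a member, among 4203 member UMIs of its library, and held 0 UMIs of Cd74, H2-Ab1 and Pf4. Levels given below for FVIO-MHT replicate 3 include it.

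The share of members was highest and lowest within the same group. It was 6.02% of kept barcodes in FVIO-MHT replicate 1 (95% Clopper-Pearson interval 3.72 to 9.15%), 0.477% in replicate 2 (0.155 to 1.11%) and 0.215% in replicate 3 (0.0699 to 0.501%). In PBS it was 1.11% in replicate 1 (0.575 to 1.93%), 1.505% in replicate 2 (0.945 to 2.27%) and 2.28% in replicate 3 (1.14 to 4.05%). The 3 PBS values lay between FVIO-MHT replicate 1 and the other 2 FVIO-MHT libraries. Intervals cover counting error only.

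The mean share was 2.24 ± 3.28% in FVIO-MHT and 1.63 ± 0.596% in PBS (SD, n = 3 each), a difference of 0.606 percentage points, smaller than the spread between replicates (two-sided exact permutation test, p = 1.0, with 0.1 the smallest p that 3 against 3 allows). Without FVIO-MHT replicate 1 the difference was -1.29 percentage points (exact permutation p = 0.2, n = 2 against 3). After thinning every barcode to 400 UMIs, with shallower barcodes left out, the shares were 2.72, 0.297 and 0.172% in FVIO-MHT and 1.52, 1.82 and 1.66% in PBS, and their difference was -0.602 percentage points (exact permutation p = 0.4, n = 3 each). Of all kept barcodes in FVIO-MHT replicate 1, 164 of 332 held a neutrophil gene of the rule, against 12 of 1462 in PBS replicate 2, so the denominators differ in their cells. In the myeloid gate, which is the rule without its Arg1, Mmp12 and C1q limits, members were 20 of 37, 5 of 209 and 5 of 421 barcodes in FVIO-MHT, against 12 of 100, 22 of 188 and 11 of 84 in PBS.

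**Figure D1:**
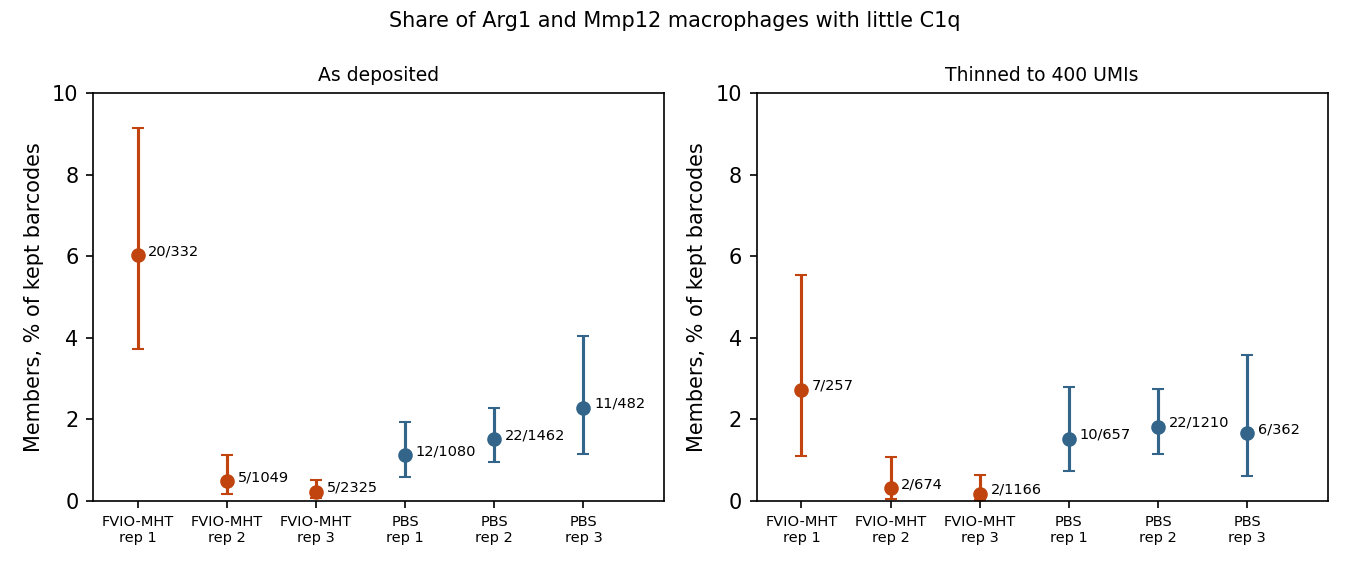
Members as a percent of kept barcodes in each library, with 95% Clopper-Pearson intervals, from the counts as deposited (left) and after thinning each barcode to 400 UMIs (right). FVIO-MHT replicate 1 is the highest of the 6 libraries and FVIO-MHT replicates 2 and 3 are the lowest in both panels.

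Transcripts that leak from broken cells can place a UMI in a cell that does not make it. Barcodes with 2 or more Arg1 and Mmp12 UMIs were therefore counted in barcodes of other kinds, those with neutrophil and those with keratin genes. Neutrophils in tumours can make Arg1, so the first kind is not a clean measure of leaked RNA. Among barcodes with a neutrophil gene of the rule there were 2 of 164, 0 of 373 and 1 of 34 in FVIO-MHT, and 0 of 61, 1 of 12 and 2 of 16 in PBS, at median depths of 306.5 to 523.5 UMIs. Among barcodes with 2 or more UMIs of Krt8, Krt18 and Epcam there were 0 of 153 and 1 of 885 in FVIO-MHT replicates 2 and 3, and 0 of 254, 4 of 764 and 1 of 164 in PBS, at median depths of 728 to 1658 UMIs. FVIO-MHT replicate 1 had 0 barcodes of that kind. Among barcodes under 200 genes there were 33 of 4668, 1 of 3951 and 5 of 2675 in FVIO-MHT. In PBS there were 6 of 3920, 32 of 3538 and 15 of 4518. Arg1 in that kind was at 248, 18.3 and 39.1 CPM in FVIO-MHT and at 33.9, 569 and 376 CPM in PBS. The part of leaked RNA in the member values was not tested. Doublets were not called, and the gate's limits on keratin and neutrophil genes are the only guard against them here.

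The rule took Arg1 and Mmp12 together, and members differed in which they held. Of the 75 members, 40 held Arg1 alone, 17 held Mmp12 alone and 18 held both. In FVIO-MHT, Arg1 alone was seen in 15 of 20, 1 of 5 and 3 of 5 members, and Mmp12 alone in 1, 3 and 1. In PBS, Arg1 alone was seen in 0 of 12, 13 of 22 and 8 of 11 members, and Mmp12 alone in 6, 4 and 2. Within each group, the libraries therefore held different mixes of the 2 genes.

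The same unevenness showed in the summed levels. Arg1 stood at 5280.1, 761 and 1665 CPM in FVIO-MHT members and at 1409, 3302 and 4743 CPM in PBS members. Mmp12 stood at 1224, 3299 and 1428 CPM in FVIO-MHT members and at 5165, 2430.1 and 581 CPM in PBS members. The groups overlapped for both genes. In PBS replicate 3, a single barcode supplied 19 of the 49 Arg1 UMIs.

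Many members lay at the edge of the rule. Of the 75, 21 held exactly 2 UMIs of Arg1 and Mmp12, while 57 barcodes that met the other limits held 1 and stayed outside. C1q was at 0 in 60 members and at 1 UMI in 15, and 16 barcodes with 2 C1q UMIs fell just outside. All 20 members of FVIO-MHT replicate 1 had 0 C1q UMIs. Barcodes with enough Arg1 and Mmp12 but 2 or more C1q UMIs numbered 0, 2 and 3 in FVIO-MHT and 9, 48 and 5 in PBS, so most of these 67 barcodes were in PBS replicate 2.

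**Figure D2:**
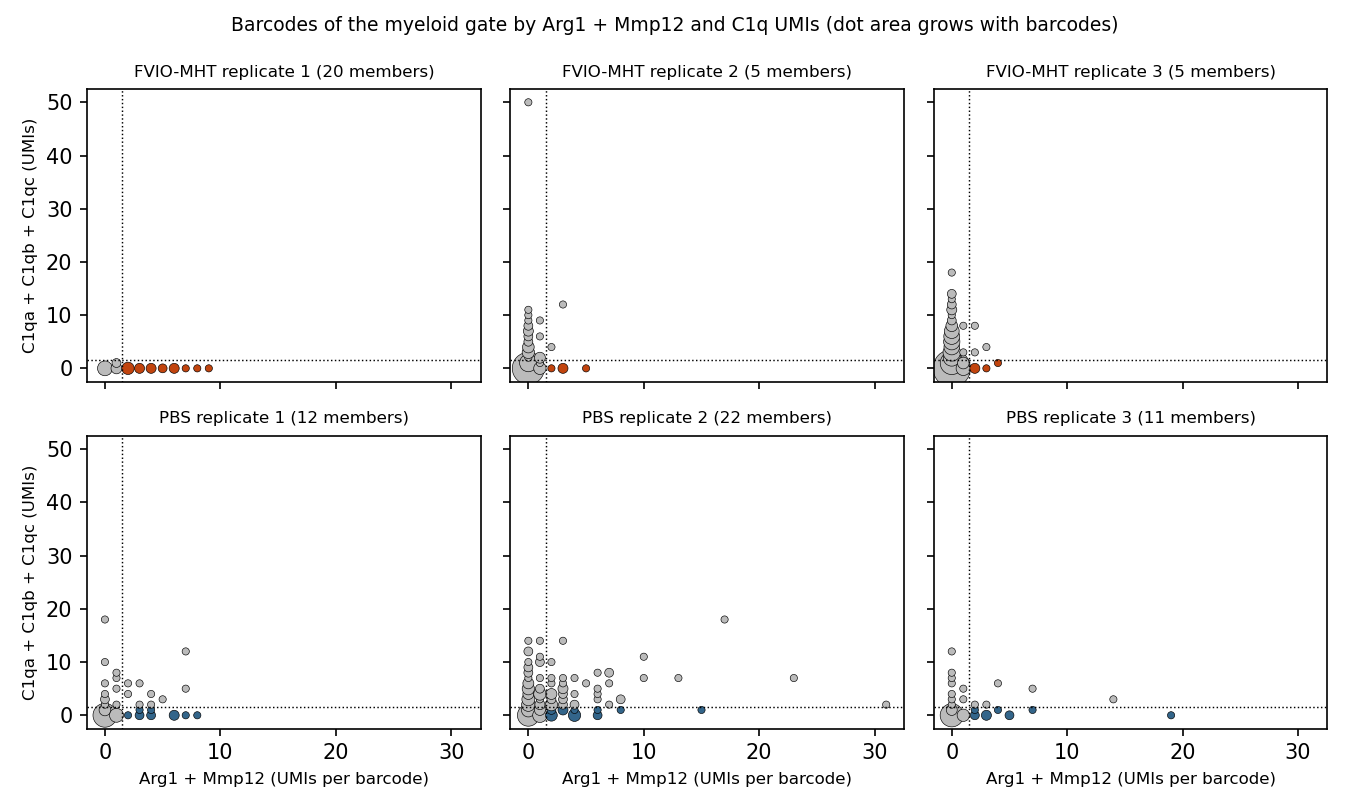
Each dot is a pair of values found in the myeloid gate, with Arg1 plus Mmp12 UMIs per barcode on the x axis and C1qa plus C1qb plus C1qc UMIs on the y axis, and dot area grows with the number of barcodes. Coloured dots are members, dotted lines mark the limits of the rule, and the region of high Arg1 and Mmp12 with 2 or more C1q UMIs is empty in FVIO-MHT replicate 1 and fullest in PBS replicate 2.

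The members were set against C1q macrophages of the same library, which are barcodes with at least 2 C1q UMIs and at most 1 UMI of Arg1 and Mmp12. The question was what else separates the classes once the genes of the rule are left out. Inhba, Lgals3, Cxcl2, S100a6, Srgn, Cd14, Ctsl, Lilrb4a and Vim were higher in members, and Apoe was lower. These 10 of 140 tested genes (7.14%) passed edgeR's quasi-likelihood test with library as a block and a Benjamini-Hochberg adjusted p under 0.05, and 9 were higher (6.43%) and 1 lower (0.714%). The test used 5 libraries with at least 5 barcodes of each class, since FVIO-MHT replicate 1 had 0 C1q macrophages.

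Inhba, which encodes a subunit of the growth factor activin A, was furthest apart. It gave 24 UMIs in the 5 members of FVIO-MHT replicate 2 and 0 in the 5 of replicate 3. PBS members gave 24, 21 and 37. As levels, members had 6089.8 and 0 CPM in those FVIO-MHT libraries and 2817, 1308 and 3582 CPM in PBS. C1q macrophages had 190.4 and 33.1 CPM in those FVIO-MHT libraries and 553, 129.8 and 987 CPM in PBS. Members were higher in 4 of 5 libraries and at 0 in FVIO-MHT replicate 3. Inhba met the filter mostly through the member sums, where it was high, and in C1q macrophages only in PBS replicate 3. The log2 fold change was 3.01 ± 0.40 (SE, edgeR adjusted p = 3.3e-05). In FVIO-MHT replicate 1, which was not in this test, 12 of 20 members held 57 Inhba UMIs, 36 of them in 1 barcode.

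Lgals3, which encodes the lectin galectin-3, had 2284 and 1428 CPM in FVIO-MHT members and 2113, 2492 and 2711 CPM in PBS members, against 1599 and 563 CPM and 921, 865 and 1257 CPM in C1q macrophages. Members were higher in 5 of 5 libraries, with a log2 fold change of 1.18 ± 0.25 (edgeR adjusted p = 0.0069). Apoe, the lipid carrier that many C1q macrophages make in quantity, ran the other way. It had 507 and 4996 CPM in FVIO-MHT members and 2230.3, 4175 and 581 CPM in PBS members, against 6017 and 15901 CPM and 2672, 6902 and 898 CPM in C1q macrophages. Apoe was lower in members in 5 of 5 libraries, with a log2 fold change of -1.16 ± 0.30 (edgeR adjusted p = 0.024).

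The other genes that passed differed by about the same amount. Cxcl2, a chemokine that draws neutrophils, had a log2 fold change of 1.19 ± 0.26 and was higher in 5 of 5 libraries. S100a6, a calcium-binding protein, had 1.26 ± 0.28 in 5 of 5, and Srgn, the proteoglycan core of secretory granules, had 1.19 ± 0.28 in 4 of 5. Their adjusted p in edgeR was 0.0069 for Cxcl2, 0.0077 for S100a6 and 0.010 for Srgn. Cd14, the co-receptor for bacterial lipopolysaccharide, had 1.17 ± 0.32, and Ctsl, the lysosomal protease cathepsin L, had 1.06 ± 0.30. Lilrb4a, an inhibitory receptor, had 1.13 ± 0.33, but it has a near-identical neighbour, Lilr4b, and reads may be split between them. Vim, an intermediate filament protein, had 0.92 ± 0.27. The last 4 genes were higher in members in 5 of 5 libraries, with edgeR adjusted p between 0.032 and 0.039. Inhba and Srgn did not keep 1 direction in all 5 libraries, so they are named here outside the rule for named genes and after their values were seen.

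**Figure D3:**
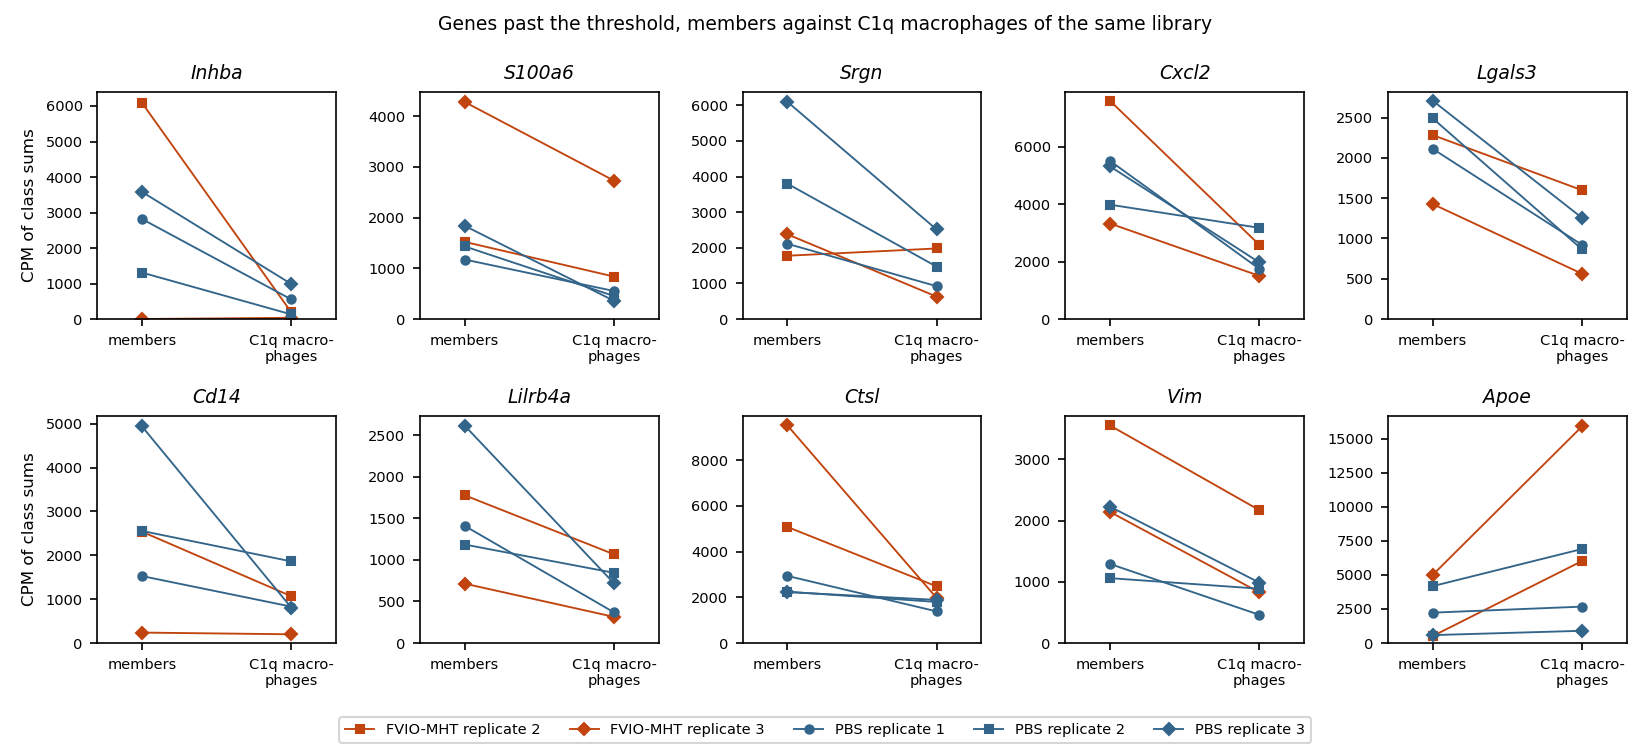
CPM of the class sums in members (left of each panel) and C1q macrophages (right) for the 10 genes that passed, with a line for each of the 5 libraries used. Members lie above C1q macrophages in every library for 7 genes and below for Apoe, while the exceptions are Srgn in FVIO-MHT replicate 2 and Inhba in FVIO-MHT replicate 3, which lies near 0 in both classes.

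Gene groups were compared in the same test, where the median log2 fold change of all 140 genes was 0.01. Of the scavenger and lipid genes 4 of 19 were tested, Lgals3 rose and Apoe fell. Of the chemokines only Cxcl2 was tested, of 21 on the list. In the monocyte list 1 of the 2 tested genes rose, S100a6, and among cytokines and growth factors 1 of 3, Inhba. Il1b, the inflammatory cytokine interleukin-1 beta, had a log2 fold change of 0.77 ± 0.28 and did not pass (edgeR adjusted p = 0.11). For MHC class II, the genes that present antigen to helper T cells, 0 of 4 tested genes passed and their median log2 fold change was -0.04. For iron and antioxidant genes 0 of 6 passed, with Fth1, the ferritin heavy chain, at 0.62 ± 0.20 (edgeR adjusted p = 0.062). For heat shock genes 0 of 3 passed, and for lysosomal genes 1 of 5, Ctsl.

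This comparison depended on the libraries and on the block. It gave 5 calls without FVIO-MHT replicate 3 and 13 without PBS replicate 2, and with no library block it gave 0 calls, with Inhba at an edgeR adjusted p of 0.13. Inhba alone passed with the 2 PBS libraries that had at least 10 barcodes of each class, and DESeq2 called 6 genes, all among the 10. After thinning to 400 UMIs, 33 genes were tested in 4 libraries, and 1 was called higher, Srgn, and 5 lower, Apoe among them. Over the alternatives in which each gene was tested, Inhba kept its call in 9 and lost it in 1. Vim kept its call in 2 and lost it in 10, Lilrb4a kept it in 2 and lost it in 8, Cd14 kept it in 5 and lost it in 7, and Ctsl kept it in 6 and lost it in 6. The other 5 genes each kept it in 8 or 9 and lost it in 4 or 5.

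Against Ly6c2 monocytes, the recently arrived blood monocytes of a tissue, 0 of 119 tested genes passed in 4 libraries (0%). These barcodes held at least 2 UMIs of Ly6c2 and Ccr2. In edgeR 11 genes had an unadjusted p under 0.05, and DESeq2 also called 0. Ctsl was 1.13 ± 0.36 higher on the log2 scale in members (edgeR adjusted p = 0.16) and Ptgs2, the inducible prostaglandin synthase, 1.19 ± 0.43 (adjusted p = 0.24). Ms4a6c, a membrane protein of the MS4A family, had -1.14 ± 0.43 (edgeR adjusted p = 0.25). Ccr2, the chemokine receptor that brings monocytes into tissue, was 254 and 1190 CPM in the members of FVIO-MHT replicates 2 and 3 and 587 and 1355 CPM in those of PBS replicates 1 and 3. It was not tested here, since it chose the monocytes.

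Within the members, FVIO-MHT was compared with PBS over all 6 libraries. No gene passed, with 0 of 132 tested genes called by edgeR (0%), 12 at an unadjusted p under 0.05, and 0 called by DESeq2. The groups did not overlap for 24 of the 132 genes (18.2%), higher in FVIO-MHT for 7 (5.30%) and lower for 17 (12.9%). A gene that met the filter in every library of a group and in no other library lacks overlap by the filter alone. How many of the 24 genes were of this kind was not counted, so these counts are a description only. Cd74, H2-Aa and H2-Eb1 were among those lower without overlap, and Btg1, Ctsl and Mif among those higher. Of these, Btg1 and Mif met the filter only through the FVIO-MHT libraries. Fewer members and less RNA per cell cannot be told apart in a library's total, and CPM removes both.

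Cd74, the chaperone of MHC class II molecules, gave 4, 25 and 9 UMIs in FVIO-MHT members and 67, 171 and 124 UMIs in PBS members. That is 306, 6344 and 2141 CPM in FVIO-MHT members and 7865, 10655 and 12004 CPM in PBS members. All 3 FVIO-MHT libraries lay below all 3 PBS libraries. The log2 fold change was -1.83 ± 0.79, which did not pass (edgeR adjusted p = 0.48). It was -3.27 without FVIO-MHT replicate 2 and -1.23 without FVIO-MHT replicate 1, with edgeR adjusted p of 0.11 and 0.61.

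The class II chains themselves followed Cd74 in part. H2-Ab1 had 229.6, 5836 and 1190 CPM in FVIO-MHT members and 9273, 5608 and 7938 CPM in PBS members, so FVIO-MHT replicate 2 lay inside the PBS range. H2-Aa had 76.5, 2537 and 952 CPM in FVIO-MHT members and 3874, 2804 and 2904 CPM in PBS members, with no overlap. H2-Eb1 had 0, 1269 and 238 CPM in FVIO-MHT members and 3287, 1433 and 2517 CPM in PBS members, also with no overlap. All 4 tested MHC class II genes had negative log2 fold changes, with a median of -1.77 against 0.01 over all genes, and 0 passed. Without FVIO-MHT replicate 2 the 4 log2 fold changes lay between -4.92 and -3.04, and without replicate 1 between -1.62 and -0.83. MHC class I showed the same sign in 3 of 3 tested genes, with a median of -0.91 and 0 past the threshold. In C1q macrophages of the same libraries, Cd74 was 7768 and 1986 CPM in FVIO-MHT replicates 2 and 3 and 4975, 11381 and 10321 CPM in PBS, so FVIO-MHT replicate 3 was the lowest of these 5 libraries in both classes.

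Pf4, platelet factor 4, is a chemokine of platelets that some macrophages also make, and it is 1 of the genes given for the label. It gave 57, 0 and 24 UMIs in 13, 0 and 3 FVIO-MHT members, and 6, 1 and 16 UMIs in 2, 1 and 4 PBS members. As a level this was 4362, 0 and 5710 CPM in FVIO-MHT and 704, 62.3 and 1549 CPM in PBS. FVIO-MHT replicates 1 and 3 lay above all PBS libraries and replicate 2 below them, and the log2 fold change of 2.31 ± 1.06 did not pass (edgeR adjusted p = 0.48). It lay between 1.57, without PBS replicate 2, and 3.37, without PBS replicate 3. Itga2b, Gp9 and Ppbp, the other platelet markers, gave 0 UMIs in members of all 6 libraries.

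Members with Pf4 were unevenly spread over libraries. Of members with Arg1 alone, 9 of 15 in FVIO-MHT replicate 1 held 44 Pf4 UMIs and 3 of 3 in replicate 3 held 24, against 0 of 13 in PBS replicate 2 and 3 of 8 in PBS replicate 3, with 14 UMIs. PBS replicate 1 had 0 members with Arg1 alone. Of the 17 members with Mmp12 alone, 1 held 1 Pf4 UMI, in PBS replicate 2.

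UMIs of Cd74 and H2-Ab1 were then counted in members with and without Pf4. In FVIO-MHT replicate 1 the 13 members with Pf4 held 2 such UMIs and the 7 without held 5, and in replicate 3 the 3 with Pf4 held 0 and the 2 without held 14. FVIO-MHT replicate 2 had 0 members with Pf4, and its 5 members held 48. In PBS replicate 1 the 2 members with Pf4 held 8 and the 10 without held 138, in replicate 2 the 1 with Pf4 held 3 and the 21 without held 258, and in replicate 3 the 4 with Pf4 held 27 and the 7 without held 179. Per UMI the level was lower in members with Pf4 in each of the 5 libraries that had both kinds, at 212 against 1368 CPM in FVIO-MHT replicate 1 and 9650 against 23765 CPM in PBS replicate 3. This is a count over barcodes that share libraries, so it carries no test.

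**Figure D4:**
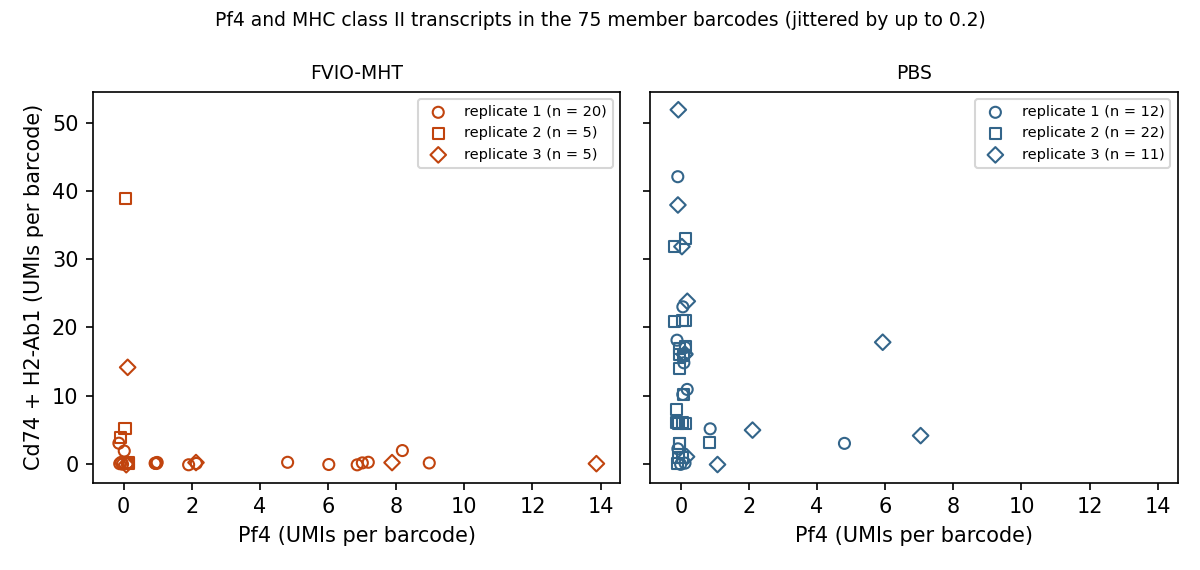
Each point is 1 of the 75 members, with Pf4 UMIs on the x axis and Cd74 plus H2-Ab1 UMIs on the y axis, FVIO-MHT on the left and PBS on the right, and symbols for replicates. In FVIO-MHT the 16 members with Pf4, 13 of them in replicate 1, hold 2 Cd74 and H2-Ab1 UMIs in all, while most PBS members hold no Pf4 and spread up the y axis.

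Of the genes on the higher side, Btg1, which restrains cell division, had the lowest p. It had 5280.1, 3045 and 1428 CPM in FVIO-MHT members and 939, 685 and 774 CPM in PBS members, with no overlap. Btg1 met the filter only through the FVIO-MHT libraries, where it was high, so its p and lack of overlap are a description only. The log2 fold change was 2.18 ± 0.57 (edgeR adjusted p = 0.33). Ctsl had 6504, 5075 and 9517 CPM in FVIO-MHT members and 2935, 2243 and 2227 CPM in PBS members, again with no overlap, and a log2 fold change of 1.63 ± 0.51 (edgeR adjusted p = 0.35). Mif, a cytokine that holds macrophages in place, had 1913, 1522 and 1190 CPM in FVIO-MHT members and 470, 1059 and 484 CPM in PBS members, without overlap. Mif too met the filter only through the FVIO-MHT libraries, so its values are likewise a description only. Cxcl1, a neutrophil-drawing chemokine, had 6351, 2284 and 1428 CPM in FVIO-MHT members and 1526, 436 and 96.8 CPM in PBS members, where FVIO-MHT replicate 3 fell inside the PBS range. Neither Mif nor Cxcl1 passed, with log2 fold changes of 1.28 ± 0.52 and 2.56 ± 0.80, and Cxcl1 was at 1.55 without FVIO-MHT replicate 1.

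The remaining genes with the lowest p on the higher side were Rps10, Gm42418, Jund, Itgam and H3f3b, with log2 fold changes between 1.11 and 1.63. On the lower side they included Rpl39, Cst3, Tpm3 and H2-D1, between -1.66 and -0.97. Fth1 was high in every library, at 32599, 25882 and 32596 CPM in FVIO-MHT members and 27351, 17447 and 25266 CPM in PBS members, and the groups overlapped. Il1b had 7117, 4314 and 1665 CPM in FVIO-MHT members and 4343, 5172 and 1936 CPM in PBS members, a log2 fold change of 0.34 ± 0.60 that was -0.31 without FVIO-MHT replicate 1 and -0.02 without PBS replicate 3. Hspa1a, the inducible HSP70 chaperone, gave 0, 0 and 1 UMIs in FVIO-MHT members and 3, 48 and 25 UMIs in PBS members. It did not pass the filter over all 6 libraries. Without PBS replicate 1 it was tested and called lower, as was Dnaja1, a co-chaperone. Hspa1a then met the filter only through PBS replicates 2 and 3, where it was high, so its call is a description only. Hspa1a has a near-identical copy, Hspa1b, which gave 0, 0 and 3 UMIs in FVIO-MHT members and 1, 58 and 19 in PBS members.

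Several genes fixed for description had too few UMIs to test. Nos2, the nitric oxide synthase that competes with arginase for arginine, gave 8, 0 and 0 UMIs in FVIO-MHT members and 0, 3 and 1 in PBS members. Arg2, the mitochondrial arginase, gave 9, 1 and 0 UMIs in FVIO-MHT members and 3, 6 and 1 in PBS members. Cd274, the checkpoint ligand PD-L1, gave 5, 7 and 0 UMIs in FVIO-MHT members and 3, 6 and 4 in PBS members. Vegfa, an angiogenic factor, gave 8, 0 and 2 UMIs in FVIO-MHT members and 5, 13 and 7 in PBS members, and Hmox1, which breaks down haem, gave 9, 2 and 8 UMIs in FVIO-MHT members and 7, 6 and 0 in PBS members. The interferon-induced genes Isg15 and Rsad2 gave at most 5 UMIs in any library. Fabp5, a fatty acid carrier, gave 0, 2 and 12 UMIs in FVIO-MHT members and 2, 0 and 2 in PBS members. These genes were below the filter when all libraries were compared, so no difference between the groups was tested for them.

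**Figure D5:**
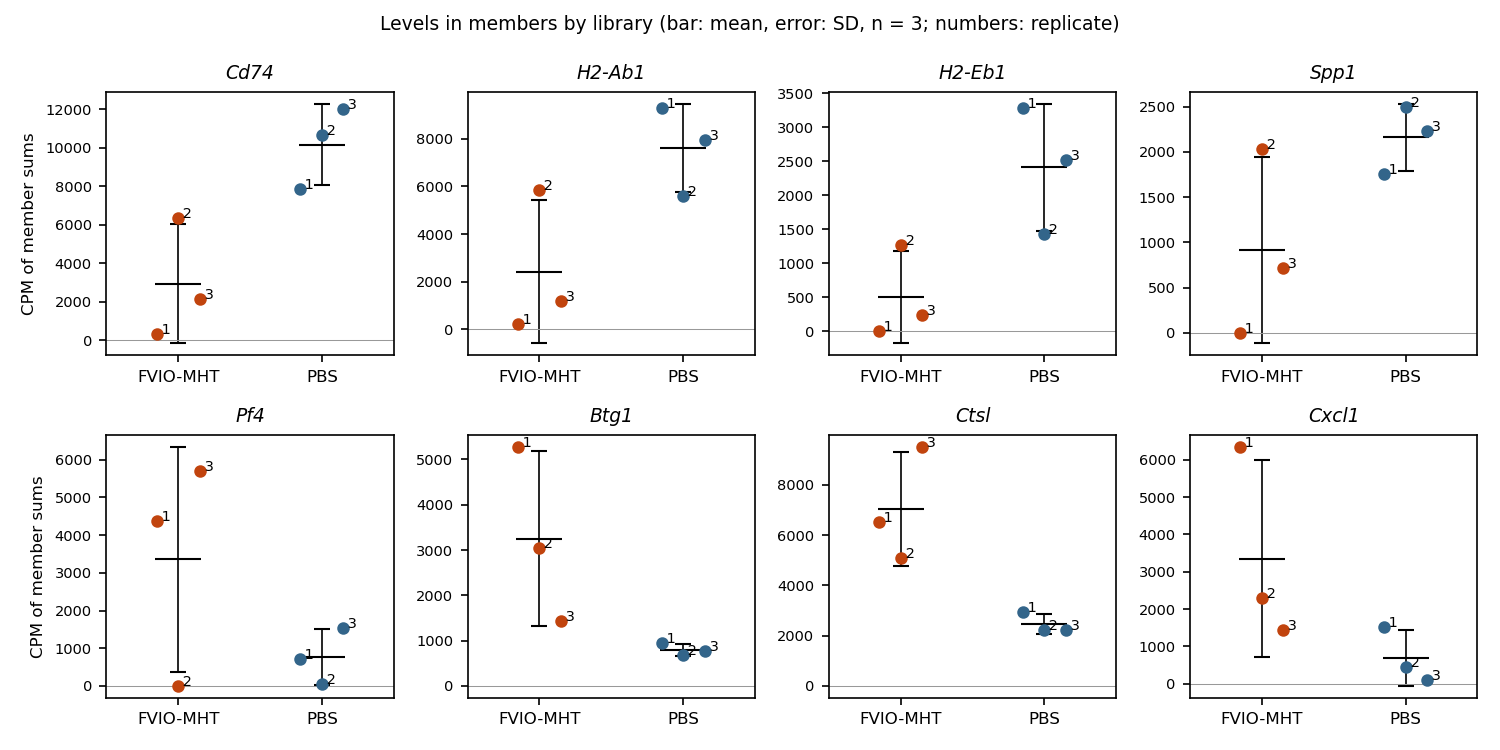
CPM of the member sums for 8 genes, with 1 point per library numbered by replicate, FVIO-MHT left of PBS, a bar at the mean and the SD as error (n = 3). The FVIO-MHT points lie below the PBS points for Cd74 and H2-Eb1 and above them for Btg1 and Ctsl, while H2-Ab1, Spp1, Pf4 and Cxcl1 overlap between groups.

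FVIO-MHT replicate 1 was the library with enough members to be set against PBS under the stricter minimum of 10 barcodes. It differed from the 3 PBS libraries in 30 of 310 tested genes by edgeR's quasi-likelihood test at an adjusted p under 0.05 (9.68%), with 22 higher (7.10%) and 8 lower (2.58%). The lone library is assumed to vary like the PBS libraries, so these calls describe 1 library, not the treatment. With 1 library in a group, a gene met the filter if it had enough counts in only 1 library. Among the higher genes, S100a9 and Saa3 could enter only through FVIO-MHT replicate 1. All 8 lower genes, named below, could enter only through PBS. Calls and fold bounds of such genes are therefore a description, and so is the split into higher and lower. The lower genes were Cd74, H2-Ab1, H2-Aa, H2-Eb1, Spp1, Hspa1a, Dnaja1 and Ccr2. The higher genes included chemokines, Saa3 and 3 of the 10 tested immediate early genes, Dusp1, Zfp36 and Nfkbia, which dampen kinase signalling, unstable messenger RNAs and NF-kappa-B. The median log2 fold change of those 10 genes was 1.05.

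Saa3, an acute phase protein of the serum amyloid A family, gave 450 UMIs in 17 of the 20 members of FVIO-MHT replicate 1, against 2, 0 and 1 UMIs in PBS members. FVIO-MHT replicates 2 and 3 gave 1 and 9. Its log2 fold change in replicate 1 was 8.62 ± 0.68 (edgeR adjusted p = 3.0e-06). The level was 34435 CPM in those members and 16194 CPM in the other kept barcodes of the library, against 612, 22.3 and 727 CPM in the other barcodes of the PBS libraries. Chemokines were called higher in 5 of 8 tested genes, which are Cxcl1, Cxcl2, Cxcl3, Ccl3 and Ccl4. Cxcl3 was 6581 CPM in the members and 6477 CPM in the rest of the library, while Cxcl1 was 6351 CPM in the members and 1011 CPM in the rest. Cxcl2 and Ccl3 were 15993 and 2219 CPM in the members and 36522 and 7262 CPM in the rest. Neutrophil genes were found in 164 of the 332 kept barcodes of that library, and the part of their RNA in the member values was not tested.

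Btg1, Rgs1 and Mmp14 were also called higher, with log2 fold changes of 2.92 ± 0.55, 1.95 ± 0.57 and 2.45 ± 0.68. Rgs1, a brake on chemokine receptor signalling, was 6275 CPM in the members of FVIO-MHT replicate 1 and 351 CPM in the rest of the library. Mmp14, a membrane protease, was 1607 CPM in the members and 226 CPM in the rest. S100a9, a neutrophil alarmin, was at 30 UMIs in FVIO-MHT replicate 1 and at 0 in PBS members, at least 26.7-fold higher against the floor of 3 counts over the group, but its level of 2296 CPM stood far below the 54762 CPM of the rest of the library.

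Spp1, which encodes the matrix protein osteopontin, gave 0 UMIs in FVIO-MHT replicate 1, 8 and 3 in replicates 2 and 3, and 15, 40 and 23 in PBS members. Against the floor of 3 counts, replicate 1 was at least 9.74-fold lower than the summed PBS members. H2-Eb1 and Hspa1a were likewise at 0 UMIs there, at least 9.61-fold and 9.49-fold lower. The 5 tested MHC class II genes had a median log2 fold change of -4.79, against -0.18 over all 310 genes. For this median H2-Eb1 and H2-DMb1, both at 0 UMIs in replicate 1, were held at their bounds. All 5 genes met the filter only through PBS, where they were high, so the median is a description only. Cd74 in the rest of that library was 256 CPM, close to the 306 CPM of its members, against 1897 to 2688 CPM in the rest of the PBS libraries. Hspa1a in the rest was 41.6, 29.0 and 40.7 CPM in the FVIO-MHT libraries and 45.9, 560.3 and 1272 CPM in the PBS libraries, so PBS replicates 2 and 3 were high outside the members too.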

How the data were processed

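Drop-seq profiles single cells in droplets. The authors deposited UMI counts as whole numbers for each gene and barcode, from reads aligned to mm10 with STAR 2.7.2b per the submitters' processing notes. No source used here names the counter or says if it used strand. The matrices list 27998 genes, and 65 duplicate symbol rows with identical counts were dropped. Members and gene lists were chosen with earlier results of these data known. Counts were summed per library and class and tested with edgeR 4.0.16 in R 4.3.3 (TMM, filterByExpr, quasi-likelihood test, Benjamini-Hochberg over all genes tested), with DESeq2 1.42.0 as an alternative. The planned minimum of 20 barcodes per class and library left no residual degrees of freedom, so a minimum of 5 was used, chosen after the barcode counts were seen. Genes of the rule were left out of the class comparisons. Named genes were the 10 with the lowest p on each side for treatment, the called genes with 1 direction in every library for the C1q comparison, and a fixed list. Some genes that the rule names are not reported here. Same-numbered replicates are not paired by the labels. The scripts were tested on simulated counts. No doublet caller was run.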

Additional observations from a re-analysis of the deposited data

How the results depend on the processing

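The difference in member share, FVIO-MHT minus PBS, kept its sign in most alternatives but turned to -0.653 percentage points at a minimum of 100 genes, -1.01 with no limit on C1q and -0.602 after thinning to 400 UMIs, and ranged from -1.29 to 1.62 with 1 library left out. It was 9.41 at a minimum of 400 genes, where FVIO-MHT replicate 1 had 9 members in 27 barcodes, and 6.95 as a share of the myeloid gate. The count of genes called for FVIO-MHT against PBS within members, 0, became 7 of 7254 with no filter, 30 with a minimum of 10 barcodes and 4 of 54 after thinning, and ranged from 0 to 2 with 1 library left out. Both genes of the 2 calls, Hspa1a and Dnaja1, came without PBS replicate 1, where Hspa1a met the filter only through the other PBS libraries. Thinning dropped FVIO-MHT replicate 2 and called Pf4, H3f3b, H2-Ab1 and Cd74. Il1b turned to -0.31 on the log2 scale without FVIO-MHT replicate 1 and to -0.02 without PBS replicate 3, and was at most 0.67 with 1 library left out.

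The count for members against C1q macrophages, 10, became 6 with DESeq2, 2 with no filter, 1 with a minimum of 10 barcodes, 6 after thinning (1 higher and 5 lower, with 2 of them among the 10), 6 without the deepest 2% of barcodes and 0 with no library block. It ranged from 5 to 13 with 1 library left out. The count for members against Ly6c2 monocytes ranged from 0 to 1 with 1 library left out. The cause of these changes was not tested. With the replicate number as a block the share difference was 0.606 percentage points and 0 genes were called within members. Same-numbered libraries correlated at 0.05, -0.11 and 0.11 in their deviations from the group means, so the numbers were not taken as pairs. A minimum of 20 barcodes, and for the monocytes one of 10, allowed no test.

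FVIO-MHT replicates 2 and 3 had 5 members each, with 3941 and 4203 UMIs, and most genes of the lists were below the filter.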
